A study of Mus musculus with 20 samples.

Results

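The genes described are 5 Wnt ligands, 3 R-spondins and 2 transcriptional targets of Wnt signalling, grouped as genes of the cortical hem and hippocampus. They were measured in whole forebrain of embryonic mice, where their signal need not come from the hem. They are Wnt8b, Wnt3a, Wnt2b, Wnt5a and Wnt7b, Rspo1, Rspo2 and Rspo3, and Lef1 and Axin2. Members were chosen by gene symbol, and all 10 were found among 20239 probe sets that carry 1 gene symbol, with 1 probe set each. Each of 20 embryos at embryonic day 15 gave forebrain RNA for 1 array of the type Affymetrix Mouse Gene ST 1.0. Ts1Cje fathers, in which part of distal chromosome 16 is present in a further copy, were mated to C57Bl/6J mothers, and embryos were wild-type (WT) or Ts1Cje. The breeding pairs ate a purified powdered chow, either plain or with apigenin, a plant flavone, at 2 g per kg of chow from mating onwards. Each genotype was studied on each chow, which gives 4 groups of 5 embryos (WT plain, Ts1Cje plain, WT apigenin and Ts1Cje apigenin). Each group holds 3 males and 2 females per the series' design text, and 3 arrays of each group had high Y-linked signal. Litters are not named in the labels, so embryos of a group, and WT and Ts1Cje embryos on the same chow, may share a mother. The p-values measure the spread between embryos only. The chow was eaten by the mothers, and what reached each embryo was not measured in these files.

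The cortical hem is a strip of signalling tissue at the medial edge of the developing cortex, next to the choroid plexus. It secretes Wnt proteins and bone morphogenetic proteins that pattern the neighbouring medial pallium and promote growth of the hippocampus. Wnt ligands bind Frizzled receptors with the co-receptors Lrp5 and Lrp6. Where the canonical branch is active, beta-catenin is stabilised, enters the nucleus and works with TCF/LEF factors to raise target genes. R-spondins bind Lgr receptors and keep the ubiquitin ligases Znrf3 and Rnf43 from removing Frizzled receptors, which makes cells more sensitive to Wnt.

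Promoter sequence was read from RefSeq (GRCm38.p6) for 6 of the 10 genes, which have 9 annotated promoters of 300 bases in that table. The stretches upstream of the gene start of Wnt8b and Rspo1 are shown because these genes had separate ranges on the 2 chows and have a promoter entry. They lie at chr19:44493222-44493471 and chr4:124986180-124986400, both on the plus strand, and are written 5′ to 3′ with each CG dinucleotide in capitals.

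Wnt8b: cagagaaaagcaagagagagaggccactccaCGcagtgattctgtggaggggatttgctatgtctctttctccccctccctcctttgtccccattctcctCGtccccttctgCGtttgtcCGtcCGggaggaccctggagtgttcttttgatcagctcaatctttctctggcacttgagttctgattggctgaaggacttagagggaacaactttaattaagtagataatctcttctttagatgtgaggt

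Rspo1: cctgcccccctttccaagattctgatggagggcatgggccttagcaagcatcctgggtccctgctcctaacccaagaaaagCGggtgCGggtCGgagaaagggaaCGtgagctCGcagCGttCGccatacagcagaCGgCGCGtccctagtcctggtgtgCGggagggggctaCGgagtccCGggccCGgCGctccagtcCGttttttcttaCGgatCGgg

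The Wnt8b stretch holds 5 CG dinucleotides in 250 bases and the Rspo1 stretch 18 in 221 bases. Over its whole 300-base window the Wnt8b promoter has 48.3% GC and 6 CG dinucleotides, against a median of 52.7% and 7 over 32851 promoters. The Rspo1 window has 69% GC and 29 CG dinucleotides, more than 87.1% of promoters. The TCF/LEF core motif CTTTGAT, searched on both strands (reverse complement ATCAAAG), was found in 0 of the 9 promoters of these genes and in 3.73% of all promoters. A missing match says only that these letters do not occur in these windows.

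Values below are log2 expression as deposited, and differences are log2 differences with the standard error from limma. Beta-globin, cell-cycle and other values that moved with the chow are given after the members. The array medians lay between 7.82 and 7.86, correlations between arrays between 0.9908 and 0.9971, and 0 arrays were identical. Wnt3a (mean of all arrays 7.30), Wnt8b (7.38), Wnt2b (7.40), Rspo2 (7.51) and Rspo1 (7.67) lay below these medians. For such dim probe sets folds are understated, and a difference that does not pass does not show that the gene was unchanged. Son, Dyrk1a, Synj1 and Ifnar1, which lie in the extra chromosome segment, separated the labelled genotypes in all 20 arrays, Dyrk1a with 11.12 to 11.23 in WT and 11.43 to 11.51 in Ts1Cje. None of the members (0 of 10) lies on chromosome 16 in RefSeq's annotation. Levels of different probe sets cannot be set against each other, so marker levels do not test the forebrain label and are given as values only. The mean of 10 pallium genes was 9.83 to 10.28, that of 10 ganglionic eminence genes 9.24 to 9.62 and that of 10 hindbrain and spinal cord genes 6.17 to 6.53. Because RNA came from whole forebrain, signal from the hem and signal from other cells cannot be told apart. The same holds for a change in the number of cells and a change of RNA per cell.

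With apigenin chow Wnt8b, Rspo1 and Rspo3 were higher in both genotypes and Wnt5a was higher in Ts1Cje, whereas Wnt3a, Wnt2b, Wnt7b, Rspo2, Lef1 and Axin2 did not pass the test in either genotype alone. In WT 3 of 10 members rose and 0 fell at an adjusted p under 0.05, beside 6.46% of all genes that rose and 5.85% that fell. In Ts1Cje 4 rose and 0 fell, beside 8.09% and 8.17% of all genes. Averaged over the genotypes 5 rose and 0 fell, beside 13.8% and 12% of all genes. The median difference of the 10 members was 0.125 in WT and 0.148 in Ts1Cje, against -0.005 and 0.006 over all genes. The effects in WT and in Ts1Cje come from different embryos and share no array. They need not be independent, because embryos of both genotypes on the same chow may share mothers. The fit also used a common estimate of the spread per gene for all 4 groups.

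**Figure D1:**
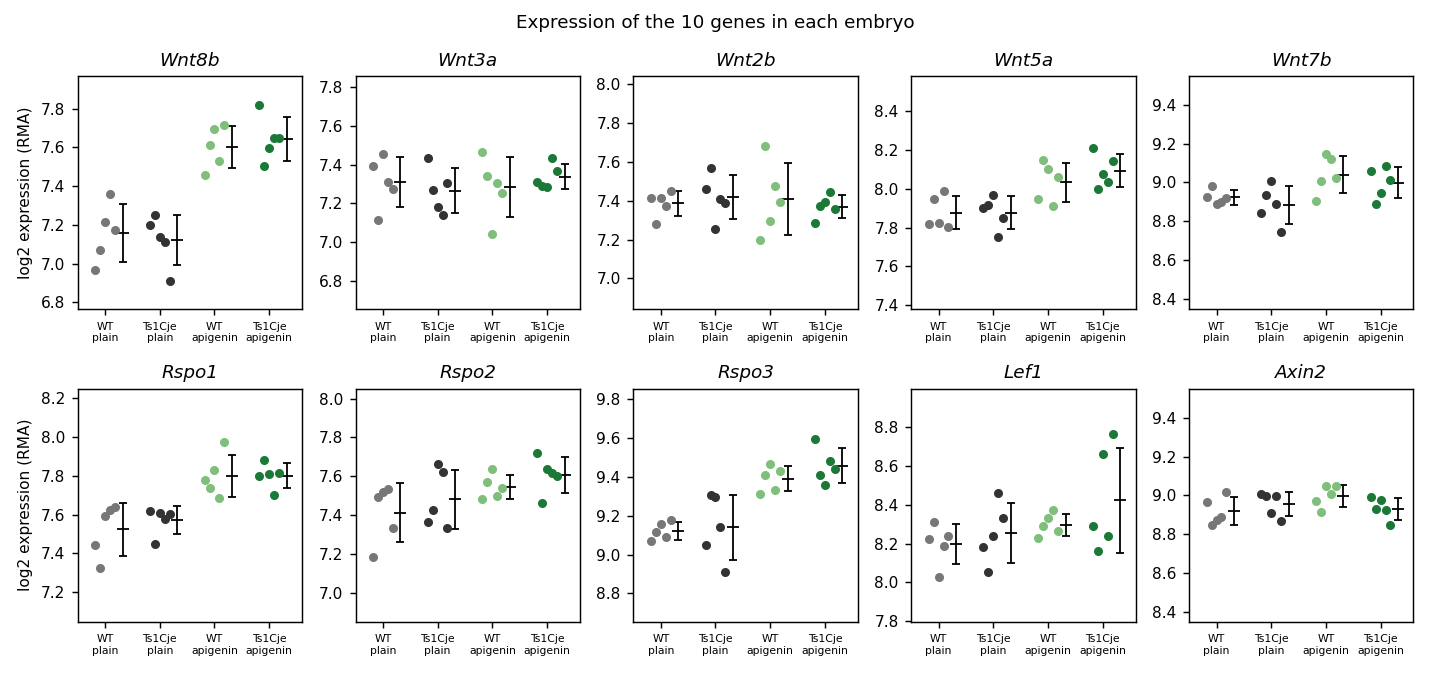
Log2 expression (RMA) of each of the 10 genes in each embryo, with 1 point per embryo, 5 embryos in each of the 4 groups, and the group mean with SD as a bar. The vertical axes span the same number of log2 units but start at different levels. The apigenin points of Wnt8b, Rspo1 and Rspo3 lie above all plain points, and those of Wnt3a, Wnt2b and Axin2 overlap them.

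Wnt8b, a canonical Wnt of the hem and the adjacent hippocampal neuroepithelium, had the largest difference of the 10 genes in both genotypes. In WT it measured 6.97, 7.07, 7.21, 7.36 and 7.17 under plain chow and 7.46, 7.61, 7.70, 7.53 and 7.71 under apigenin. In Ts1Cje it measured 7.20, 7.25, 7.14, 7.11 and 6.91 under plain chow and 7.82, 7.50, 7.59, 7.65 and 7.65 under apigenin. The lowest of the 10 apigenin embryos (7.46) was above the highest of the 10 plain embryos (7.36). The WT means were 7.16 ± 0.15 and 7.60 ± 0.11 (SD, n = 5 each), a limma difference of 0.44 ± 0.08 (SE; 95% interval 0.29 to 0.60; adjusted p = 7.7e-04), or 1.36-fold. The Ts1Cje means were 7.12 ± 0.13 and 7.64 ± 0.12 (SD, n = 5 each), a limma difference of 0.52 ± 0.08 (SE; 0.36 to 0.68; adjusted p = 1.02e-04), or 1.43-fold. Averaged over genotypes it was 0.48 ± 0.05 (SE; adjusted p = 1.73e-06), or 1.40-fold, with 10 of 10 apigenin embryos above every plain embryo.

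Wnt3a, the hem ligand needed for growth of the hippocampus, showed no such pattern. On plain chow it measured 7.39, 7.11, 7.46, 7.31 and 7.28 in WT and 7.43, 7.27, 7.18, 7.14 and 7.30 in Ts1Cje. On apigenin chow the values were 7.47, 7.34, 7.04, 7.31 and 7.26 in WT and 7.31, 7.29, 7.28, 7.43 and 7.37 in Ts1Cje. All 4 groups overlap, and the lowest and the highest single embryo, at 7.04 and 7.47, were both WT on apigenin. The chow difference was -0.03 in WT (95% interval -0.18 to 0.13; limma adjusted p = 0.873) and 0.07 in Ts1Cje (-0.08 to 0.22; adjusted p = 0.603). Averaged over genotypes the interval ran from -0.09 to 0.13, which does not reach the point estimate of Wnt8b. The difference between these 2 genes' responses was not tested.

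Wnt2b, another canonical ligand of the hem, lay between 7.28 and 7.45 in WT and between 7.26 and 7.57 in Ts1Cje on plain chow. On apigenin chow it lay between 7.20 and 7.68 in WT and between 7.29 and 7.44 in Ts1Cje. The groups overlap throughout, and the WT embryos on apigenin spread most (SD 0.19 against 0.06 to 0.11 in the other groups). Averaged over genotypes the chow difference was -0.01 (95% interval -0.12 to 0.09; limma adjusted p = 0.904).

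Wnt5a, a ligand that signals largely through branches other than beta-catenin, was higher on apigenin chow. In WT it measured 7.82, 7.95, 7.83, 7.99 and 7.80 under plain chow and 7.95, 8.15, 8.10, 7.91 and 8.06 under apigenin. In Ts1Cje it measured 7.90, 7.92, 7.97, 7.75 and 7.85 under plain chow and 8.21, 8.00, 8.08, 8.04 and 8.14 under apigenin. The chows overlap in WT and are apart in Ts1Cje, where the lowest apigenin embryo was at 8.00 and the highest plain embryo at 7.97. The limma difference was 0.22 ± 0.06 in Ts1Cje (SE; adjusted p = 0.0111), or 1.16-fold. In WT it was 0.16 ± 0.06 (SE; adjusted p = 0.0752), which passed without WT plain replicate 4 (adjusted p = 0.0446), without WT apigenin replicate 4 (0.0395) or without the dimmest 40% of genes (0.0372). Averaged over genotypes Wnt5a rose by 0.19 ± 0.04 (SE; adjusted p = 0.00132).

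Wnt7b, a ligand of cortical neurons and of the hem that also guides the growth of brain vessels, measured 8.92, 8.98, 8.89, 8.90 and 8.92 in WT and 8.84, 8.94, 9.01, 8.89 and 8.75 in Ts1Cje on plain chow. On apigenin chow it measured 8.90, 9.01, 9.15, 9.12 and 9.02 in WT and 9.06, 8.89, 8.95, 9.09 and 9.01 in Ts1Cje. The chows overlap in both genotypes. The limma difference was 0.12 ± 0.05 in WT (SE; adjusted p = 0.172) and 0.11 ± 0.05 in Ts1Cje (SE; adjusted p = 0.166). Only the average over genotypes, 0.12 ± 0.04 (SE; adjusted p = 0.0262), passed the threshold. It did not pass without Ts1Cje plain replicate 5 (adjusted p = 0.0533), WT apigenin replicate 3 (0.0546) or replicate 4 (0.0514), or Ts1Cje apigenin replicate 1 (0.0509) or replicate 4 (0.0519).

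Among the R-spondins, Rspo1 and Rspo3 rose in both genotypes. Rspo1 measured 7.44, 7.32, 7.59, 7.63 and 7.64 in WT on plain chow and 7.78, 7.74, 7.83, 7.69 and 7.97 in WT on apigenin chow. In Ts1Cje it measured 7.62, 7.45, 7.61, 7.58 and 7.60 under plain chow and 7.80, 7.88, 7.81, 7.70 and 7.82 under apigenin. Every apigenin embryo was at or above 7.69 and every plain embryo at or below 7.64. The limma difference was 0.28 ± 0.06 in WT (SE; adjusted p = 0.00544), or 1.21-fold, and 0.23 ± 0.06 in Ts1Cje (SE; adjusted p = 0.0134), or 1.17-fold. With the methods' t-test and Benjamini-Hochberg adjustment the WT difference did not pass (adjusted p = 0.074). Averaged over genotypes Rspo1 rose by 0.25 ± 0.04 (SE; adjusted p = 1.81e-04).

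Rspo3, an R-spondin expressed at the hem, measured 9.07, 9.11, 9.16, 9.09 and 9.18 in WT on plain chow and 9.31, 9.41, 9.47, 9.33 and 9.43 in WT on apigenin chow. In Ts1Cje it measured 9.05, 9.31, 9.30, 9.14 and 8.91 under plain chow and 9.60, 9.41, 9.36, 9.48 and 9.44 under apigenin. The WT groups are well apart, whereas 2 Ts1Cje embryos on plain chow lie just under the lowest apigenin embryo of either genotype. The limma difference was 0.27 ± 0.06 in WT (SE; 95% interval 0.14 to 0.40; adjusted p = 0.00766), or 1.20-fold. In Ts1Cje it was 0.32 ± 0.06 (SE; 0.18 to 0.45; adjusted p = 0.00163), or 1.24-fold. Averaged over genotypes Rspo3 rose by 0.29 ± 0.04 (SE; adjusted p = 5.38e-05).

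Rspo2 encodes the remaining R-spondin among the members. It was between 7.18 and 7.53 in WT and between 7.33 and 7.66 in Ts1Cje on plain chow, and between 7.48 and 7.64 in WT and between 7.46 and 7.72 in Ts1Cje on apigenin chow. The ranges overlap in both genotypes. Averaged over genotypes the difference was 0.13 ± 0.05 (SE; limma adjusted p = 0.0729). It passed without the dimmest 40% of genes (limma adjusted p = 0.0384). Leaving out Ts1Cje plain replicate 3 (0.0305), Ts1Cje plain replicate 4 (0.0456) or Ts1Cje apigenin replicate 2 (0.0441) also gave a pass. With runs of numbers in the sample titles as a random block the limma adjusted p was 0.0306. The fitted correlation within runs was -0.0532. As each run holds a single chow, a negative value narrows the error of the chow difference, so that pass adds no support.

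All apigenin embryos exceeded all plain embryos in 3 of the 10 genes (Wnt8b, Rspo1 and Rspo3) and in 2.48% of all genes. Within WT the same separation held for 3 members and 5.16% of all genes, and within Ts1Cje for 4 members, Wnt5a being the additional one, and 7.47% of all genes.

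The target genes did not pass the test. Lef1, a TCF/LEF factor that is itself raised by Wnt and is needed for the hippocampus, measured 8.22, 8.31, 8.03, 8.19 and 8.24 in WT and 8.18, 8.05, 8.24, 8.46 and 8.33 in Ts1Cje on plain chow. On apigenin chow it measured 8.23, 8.29, 8.33, 8.37 and 8.27 in WT and 8.29, 8.16, 8.66, 8.24 and 8.77 in Ts1Cje. Embryos 3 and 5 of Ts1Cje on apigenin stand above every other embryo, and the remaining values overlap. The limma difference was 0.10 ± 0.10 in WT (SE; adjusted p = 0.604) and 0.17 ± 0.10 in Ts1Cje (SE; adjusted p = 0.288). These 2 embryos are the ones of that group with low Y-linked signal.

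Axin2, a feedback inhibitor widely used as a readout of canonical Wnt activity, measured 8.97, 8.85, 8.87, 8.89 and 9.02 in WT and 9.01, 9.00, 8.91, 9.00 and 8.87 in Ts1Cje on plain chow. On apigenin chow it measured 8.97, 8.91, 9.05, 9.01 and 9.05 in WT and 8.99, 8.93, 8.98, 8.92 and 8.85 in Ts1Cje. All 4 groups overlap. The limma difference was 0.08 in WT (95% interval -0.01 to 0.17; adjusted p = 0.278) and -0.02 in Ts1Cje (-0.11 to 0.07; adjusted p = 0.809). Averaged over genotypes the interval of -0.04 to 0.09 does not include the estimates of Wnt8b, Rspo1 or Rspo3. Whether the response of Axin2 differs from theirs was not tested.

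**Figure D2:**
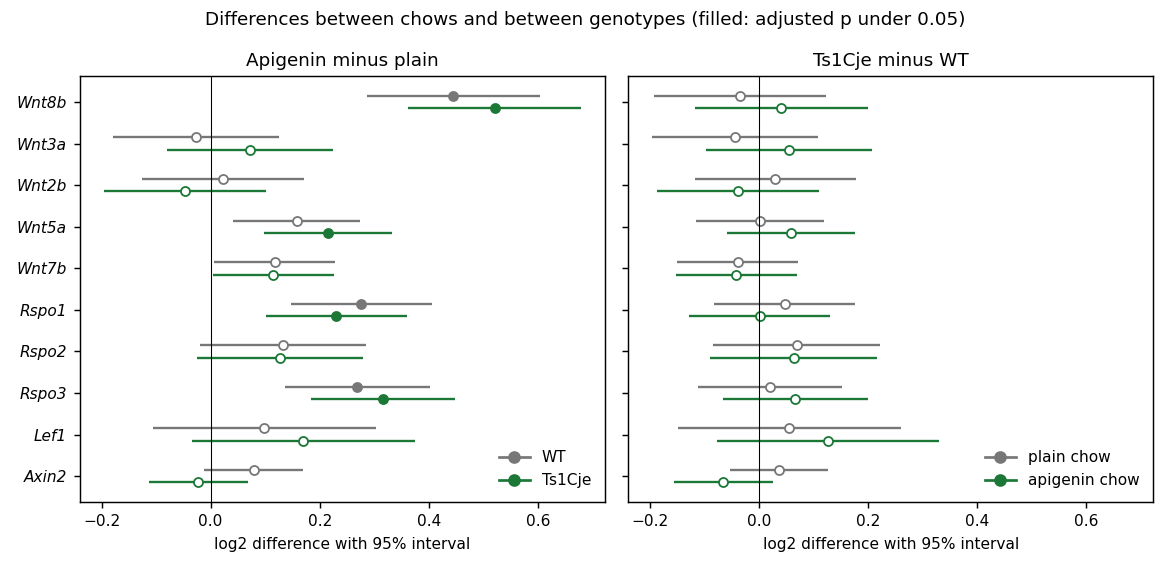
Log2 differences of the 10 genes with 95% intervals from limma, apigenin minus plain chow in WT and in Ts1Cje on the left and Ts1Cje minus WT on each chow on the right. Filled points have an adjusted p under 0.05. Filled points appear for Wnt8b, Rspo1 and Rspo3 in both genotypes and Wnt5a in Ts1Cje on the left, and none on the right.

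The genotype comparison asks whether these genes differ between Ts1Cje and WT embryos. On plain chow 0 of 10 members passed with limma, beside 0.311% of all genes, and the differences ran from -0.04 for Wnt3a to 0.07 for Rspo2. On apigenin chow 0 of 10 passed, beside 0.311% of all genes, with differences from -0.07 for Axin2 to 0.13 for Lef1. Averaged over chows 0 of 10 passed, beside 0.623% of all genes, and the smallest adjusted p was 0.769 for Lef1. In each of these comparisons 0 members had an unadjusted p under 0.05, and the methods' t-test called 0 members on either chow. For Wnt8b the averaged interval of Ts1Cje minus WT was -0.11 to 0.12, and for Rspo3 it was -0.05 to 0.14.

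The interaction asks whether apigenin acted differently in the genotypes. No member passed (0 of 10 with limma, 0 with an unadjusted p under 0.05), beside 0% of all genes, of which 533 had an unadjusted p under 0.05. Wnt5a was called in Ts1Cje and not in WT, and the test of that difference did not pass: the interaction was 0.06 ± 0.08 (SE; 95% interval -0.11 to 0.22; adjusted p = 1). For Wnt8b it was 0.08 ± 0.11 (SE; -0.15 to 0.30), for Rspo3 0.05 ± 0.09 (SE; -0.14 to 0.23) and for Rspo1 -0.05 ± 0.09 (SE; -0.23 to 0.14). Axin2 had the smallest interaction p of the 10, 0.113 before adjustment, with an estimate of -0.10 ± 0.06 (SE).

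Among the receptors, 7 of 15 Frizzled and co-receptor genes rose, 0 fell and 8 did not pass when averaged over genotypes, beside 13.8% of all genes that rose. The median difference was 0.081 against -0.001 over all genes, and 4 of 15 rose within each genotype. Fzd2 rose by 0.26 ± 0.04 (SE; limma adjusted p = 1.9e-05), Fzd3 by 0.19 ± 0.03 (SE), Fzd1 by 0.18 ± 0.04 (SE) and Fzd8 by 0.15 ± 0.03 (SE), and each of these 4 also passed in WT and in Ts1Cje alone. Of the 14 Wnt ligands outside the 10 genes, 1 rose (Wnt7a, by 0.12 ± 0.03 SE) and 1 fell (Wnt4, -0.11 ± 0.04 SE). The shares of all genes, 13.8% that rose and 12% that fell, stand beside this and each later list count for chow, which are averaged over genotypes. Of 3 genes of Wnt release, Wls, which escorts Wnt proteins to the cell surface, rose by 0.09 ± 0.03 (SE). The 6 other genes of the R-spondin system gave 0 higher and 2 lower, the receptor Lgr4 (-0.13 ± 0.05 SE) and the ubiquitin ligase Znrf3 (-0.09 ± 0.03 SE).

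Of 16 secreted Wnt inhibitors 0 rose and 1 fell, Frzb (-0.20 ± 0.07 SE). Inside the cell 5 of 22 genes of the beta-catenin pathway outside the members rose and 2 fell. The co-repressor Tle1 rose by 0.22 ± 0.03 (SE), the TCF factor Tcf7l1 by 0.27 ± 0.05 (SE) and beta-catenin itself (Ctnnb1) by 0.11 ± 0.03 (SE), while the co-activator Bcl9l fell (-0.15 ± 0.03 SE). Target genes other than Lef1 and Axin2 went both ways, 2 of 11 up and 2 down with a median of 0.000. Nkd2, a feedback inhibitor that acts on Dishevelled, fell (-0.31 ± 0.03 SE; limma adjusted p = 8.77e-07), whereas its relative Nkd1 rose by 0.12 ± 0.04 (SE). Ccnd1, a Wnt target and a cyclin of the G1 phase, rose by 0.29 ± 0.05 (SE; adjusted p = 1.64e-04). Znrf3, counted in this list too, fell.

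**Figure D3:**
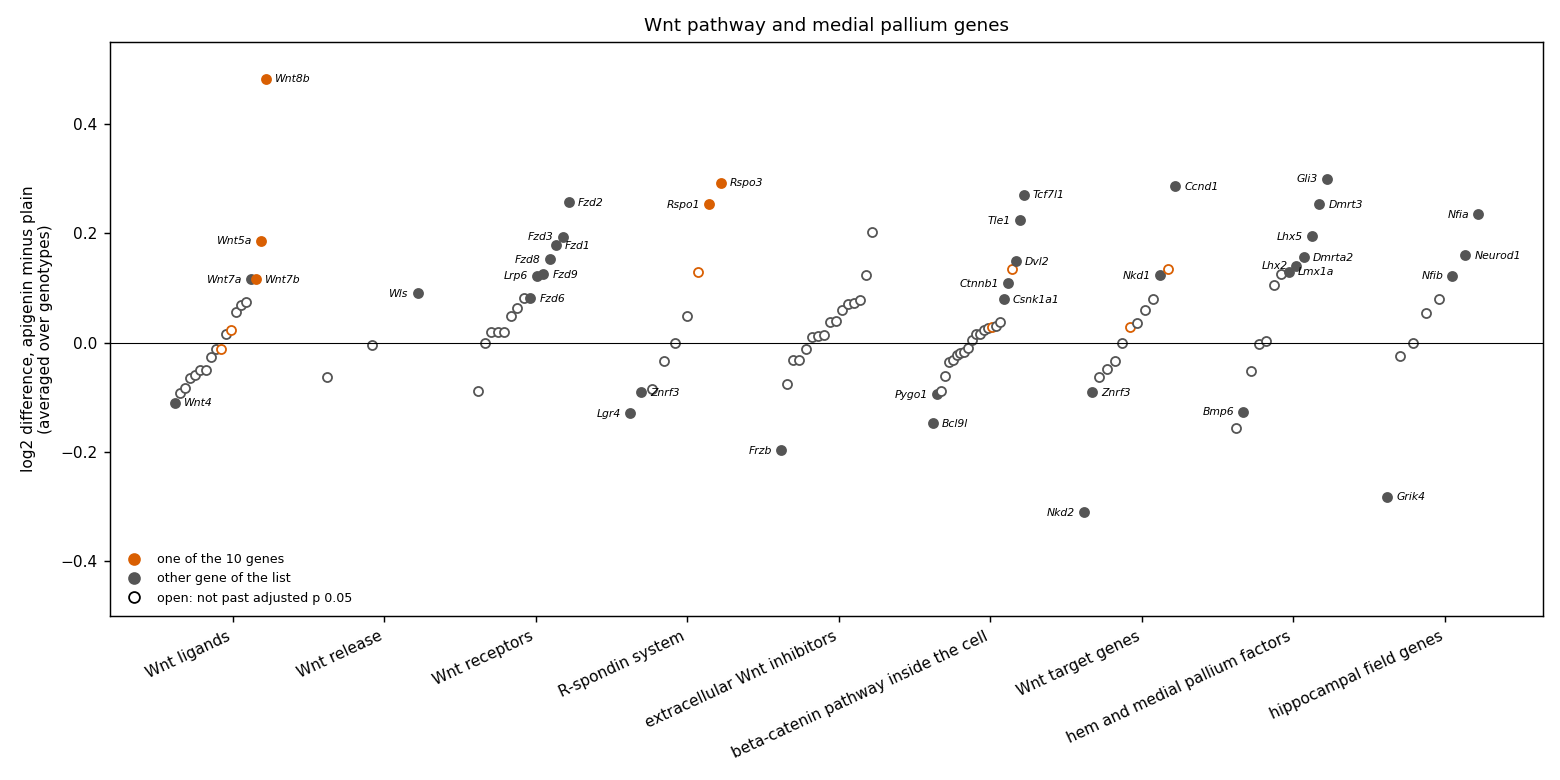
Log2 difference of apigenin minus plain chow, averaged over genotypes, for each gene of 9 lists of the Wnt pathway, hem and hippocampus, 1 point per gene. Filled points have a limma adjusted p under 0.05, and orange marks the 10 genes described. Wnt8b at 0.48 is the highest point, Nkd2 at -0.31 the lowest, and 7 receptors are filled above 0.

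Of 13 transcription factors and signals of the hem and medial pallium 6 rose and 1 fell, with a median of 0.126, and the 6 that rose are all transcription factors. Gli3, the zinc finger factor needed for hem formation, rose by 0.30 ± 0.04 (SE; limma adjusted p = 3.1e-05), Dmrt3 by 0.25 ± 0.04 (SE), Dmrta2 by 0.16 ± 0.04 (SE) and Lhx2, which restricts the hem, by 0.14 ± 0.03 (SE). Of the 4 secreted signals in the list 0 rose. Bmp6 fell (-0.13 ± 0.03 SE; adjusted p = 0.00805), and Bmp4 (-0.16 ± 0.06 SE; adjusted p = 0.0781), Bmp7 (-0.05 ± 0.06 SE) and Gdf7 (-0.002 ± 0.03 SE) did not pass. These and Lmx1a, a marker of the hem itself, were named after their values were seen. Lmx1a rose by 0.13 ± 0.04 (SE; adjusted p = 0.0278) on average and passed in neither genotype alone (adjusted p = 0.165 and 0.185). Of 8 hippocampal field genes 3 rose, Nfia by 0.23 ± 0.03 (SE), Neurod1 by 0.16 ± 0.04 (SE) and Nfib by 0.12 ± 0.03 (SE), and 1 fell, the kainate receptor gene Grik4 (-0.28 ± 0.03 SE). Genotype averaged over chows gave 0 limma calls in each of these lists of the pathway, hem and hippocampus, with 0 to 3 genes per list at an unadjusted p under 0.05.

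Other features of the tissue moved with the chow as well. All 19 genes of G2/M and mitosis rose (median 0.394), and their mean level was 8.89 to 9.11 in WT and 8.84 to 9.16 in Ts1Cje on plain chow, and 9.31 to 9.47 and 9.32 to 9.49 on apigenin chow. Of 14 synapse genes 0 rose and 10 fell (median -0.255), the levels being 10.56 to 10.66 (WT) and 10.56 to 10.68 (Ts1Cje) with plain chow, and 10.34 to 10.44 (WT) and 10.32 to 10.43 (Ts1Cje) with apigenin. Embryonic beta-globin Hbb-y lay between 6.32 and 7.67 on plain chow and between 9.16 and 10.3 on apigenin chow. Over all 6 erythroid genes 2 rose and 1 fell, and the levels were 6.99 to 7.16 in WT and 6.82 to 7.15 in Ts1Cje on plain chow, and 7.56 to 7.92 and 7.49 to 7.84 on apigenin chow. All embryos were labelled embryonic day 15, and a difference in maturity between the chow groups cannot be told apart from the chow. The part of embryo maturity, proliferating cells, neuron maturation and blood in the higher Wnt8b, Rspo1, Rspo3 and Wnt5a was not tested.

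Pallium markers rose in 7 of 10 genes and fell in 0 (median 0.156), and ganglionic eminence markers rose in 6 of 10 and fell in 1 (median 0.173). Of the lists for tissue next to the hem, choroid plexus gave 2 of 10 up and 1 down, with levels of 8.27 to 8.38 in WT and 8.32 to 8.39 in Ts1Cje on plain chow, and 8.29 to 8.37 and 8.32 to 8.43 on apigenin chow. For Ts1Cje against WT averaged over chows, 2 of these 10 genes were called higher and 0 lower, beside 0.623% of all genes. The levels of this list therefore carry a genotype difference as well. Cajal-Retzius cells, neurons born in part from the hem, gave for chow 2 of 9 up and 2 down, beside 13.8% and 12% of all genes. Meninges gave 0 of 12 up and 4 down (median -0.044), endothelium 1 of 12 up and 2 down, diencephalon 1 of 9 up and 0 down, and hindbrain and spinal cord 0 of 10 in either direction (0 at an unadjusted p under 0.05). The part of dissection or of these cell types in the members' differences was not tested.

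Numbers in the titles were lower in the apigenin than the plain groups, so chow and any order of collection cannot be told apart. Each chow's numbers fall into 2 runs, and what the runs stand for is not given in the sources used here. Wnt8b averaged 7.14 in both plain runs, against 7.62 and 7.63 in those of apigenin. Rspo3 averaged 9.17 and 9.08 against 9.42 and 9.43, Rspo1 7.51 and 7.61 against 7.83 and 7.76, and Wnt5a 7.90 and 7.85 against 8.07 and 8.05. Within the plain runs Ts1Cje minus WT was 0.112 and -0.255 for Wnt8b, and within the apigenin runs 0.0449 and 0.0356, with no common sign.

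Variation from embryo to embryo within groups was shared by some members. Deviations from the group means were correlated over the 20 embryos, as a description, since all genes of an embryo share its RNA and array. Of 45 pairs of members 6 had Pearson's r above 0.5 and 0 below -0.5. The share among all pairs of genes was not computed, so these counts do not set the members apart from other genes. Rspo3 went with Wnt7b (r = 0.71), Wnt8b (0.64) and Rspo2 (0.53), and Wnt8b with Wnt5a (0.59) and Rspo2 (0.59). Wnt3a stood on the other side, with -0.47 to Wnt7b as the lowest value of all pairs. Rspo1, which rose with the same chow, was close to 0 with Rspo3 (-0.04) and Rspo2 (0.06).

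**Figure D4:**
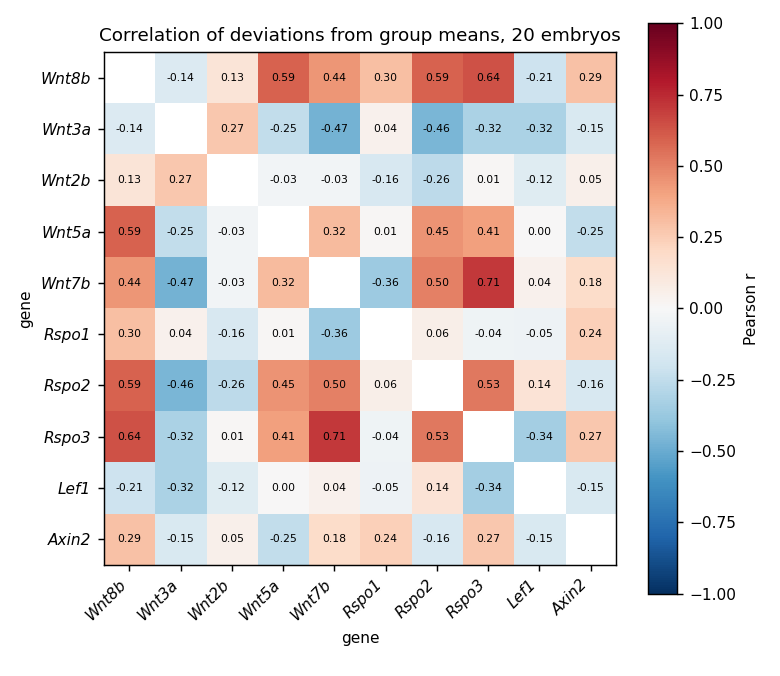
Pearson correlation between the deviations of each pair of the 10 genes from their group means over 20 embryos, with r printed in each cell and the colour scale from -1 to 1. Rspo3 with Wnt7b (0.71) is the highest pair and Wnt3a with Wnt7b (-0.47) the lowest.

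The same deviations were set beside the level of the G2/M list, without the values of all genes for comparison. Rspo2 had r = 0.82, Rspo3 0.76, Wnt8b 0.61, Wnt7b 0.59 and Wnt5a 0.46, whereas Rspo1 was at 0.03, Lef1 at 0.04 and Wnt3a at -0.60. Wnt3a also ran against the choroid plexus list (-0.69), and Wnt2b ran with the meninges list (0.62) and the list of hem and medial pallium factors (0.62). With that hem list Axin2 had 0.59, Wnt3a 0.35, Wnt8b 0.27, Rspo1 0.25, Rspo3 0.15 and Wnt5a -0.10. Wnt7b had -0.06, Lef1 -0.16 and Rspo2 -0.29. With the endothelium list the values were 0.62 for Wnt8b, 0.40 for Rspo1, 0.35 for Rspo3 and 0.43 for Wnt5a. With Hbb-y the values were 0.53 for Rspo2, 0.49 for Rspo3, 0.39 for Wnt5a, 0.34 for Wnt8b and 0.34 for Lef1. They were 0.28 for Rspo1, 0.26 for Wnt7b, 0.18 for Axin2, -0.15 for Wnt2b and -0.51 for Wnt3a. Over all named genes, the deviations most like those of Wnt8b belonged to Med15 (0.836) and Parp1 (0.816). Those most like Rspo3 belonged to Sox5 (0.888) and Cdon (0.866), those most like Rspo1 to Eogt (0.813) and Gm13249 (0.797), and those most like Wnt5a to Gca (0.81) and Rhox10 (0.771).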

How the data were processed

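Expression was measured in forebrain RNA of 20 embryos, and per the labels' protocols only RNA of high integrity was hybridised. Per the submitters' processing notes the authors used RMA, and the deposited table holds its log2 values, 1 for each probe set and embryo. RMA corrects background, equalises the arrays' distributions and summarises probes, so overall shifts between arrays are removed and folds of dim genes are understated. For its version, chip definition and build: not given in the sources used here.

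Of 21225 probe sets a platform table named 20239 with 1 gene, 0 with several, and 986 are unnamed here. Columns of other samples: 0 were found. Genotype and treatment were read from the labels' characteristics, because all 20 titles carry the strain name. A mean per group was fitted to all 20 arrays with limma 3.58.1 (lmFit, eBayes) in R 4.3.3. The tests were two-sided, p-values of the 20239 genes were adjusted by Benjamini-Hochberg and read at 0.05, and the script was tested on simulated data. The precision is limited by 5 embryos per group. No probe set was left out for low signal. Alternatives were the methods' t-test, only the compared groups, and leaving out each array, the dimmest 20% or the dimmest 40% of genes. Others were a second quantile normalization, median centring, array weights, a trended robust prior, title-number runs as a block, and a covariate for the Y-linked level.

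The 10 members, the 21 gene lists and the tests were chosen with earlier results of these data known, so counts over a list describe it and support nothing independently. Named beside the members were up to 4 genes of each described list with the smallest p in the averaged comparison, and for each member called in a single comparison the 2 genes with the highest correlation of deviations. Promoters came from a RefSeq table of GRCm38.p6. Each spans 300 bases, 250 before to 50 after an annotated start, and a gene can have several such starts. That start need not be the start of the gene. In the Rspo1 window 221 bases lie before the gene start, and only these are shown.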

Additional observations from a re-analysis of the deposited data

Results flagged for a closer look

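Of 40 sets of 5 embryos (each of the 10 genes in each group), 1 had an embryo far from the others by Dixon's test at the 95% level. Rspo1 in replicate 2 of Ts1Cje on plain chow was at 7.45, whereas the other 4 embryos of that group lay between 7.58 and 7.62. The gap was 0.764 of the group's range, above the critical value of 0.71. Chance alone marks about 1 in 20 such sets.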

How the results depend on the processing

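Beside leave-one-out, the alternatives that could be fitted gave 2 to 4 members for apigenin in WT, 4 in Ts1Cje and 5 to 6 averaged over genotypes. Leaving out each embryo in turn gave 3 to 4 members for apigenin in WT, 4 to 4 in Ts1Cje, 4 to 6 averaged over genotypes, and 0 to 0 for genotype and interaction. Of 240 leave-one-out values of called differences 235 stayed called and 5 lost the call, and of 110 under the other alternatives 109 stayed and 1 lost it, with 0 reversed. The lost calls were Rspo1 in WT under the methods' t-test and Wnt7b averaged over genotypes without 1 of 5 embryos, each given with its p in the results. Wnt8b kept its call throughout, with differences of 0.40 to 0.50 in WT and 0.47 to 0.56 in Ts1Cje. Title-number runs could not be fitted as a fixed block for apigenin, because each run holds 1 chow. A random block, added after seeing the data, was used instead. Its fitted correlation within runs was -0.0532, which narrows the error of the chow differences. No paired analysis was possible because the replicate numbers follow accession order and pair no embryos. The array number and the closeness of dim probes to background limit small differences, and no raw intensities were used to measure that limit.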

Other observations

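Lef1 was set beside the Y-linked level of the embryos, a comparison chosen after its values were seen. In Ts1Cje on apigenin the 2 embryos with low Y-linked signal were at 8.66 and 8.77 and the 3 with high signal between 8.16 and 8.29. The corresponding ranges were 8.24 to 8.31 and 8.03 to 8.22 in WT on plain chow, 8.24 to 8.46 and 8.05 to 8.33 in Ts1Cje on plain chow, and 8.29 to 8.37 and 8.23 to 8.33 in WT on apigenin. They were apart in WT on plain chow and in Ts1Cje on apigenin and overlapped in the other groups. With the Y-linked level added to the limma fit, its coefficient for Lef1 was -0.05 ± 0.01 per log2 unit (SE; limma adjusted p = 0.479 over 20239 genes), which does not pass the threshold.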
